A study of Mus musculus with 15 samples.

Results

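Genes of the unfolded protein response and of protein folding in the endoplasmic reticulum (ER) were followed in brown adipose tissue of mice given bisphenol S (BPS) or vehicle. The members were the rows of the deposited FPKM table whose symbol is on a fixed list of 34 genes, and all 34 were found among 16774 genes. FPKM is an abundance of sequenced fragments scaled by transcript length and by library total. The tissue came from 7 BPS mice (replicates 1 to 6 and 8) and 8 vehicle mice (Veh, replicates 1 to 8), 1 library per labelled mouse. Bisphenol S is an industrial substitute for bisphenol A, and per the series title the dose was an environmental one and the outcome of interest was aging. Dose, route, duration, strain, sex and age are not stated in the labels, so what both groups share in these respects is unknown from the labels. Transcripts of the male Y chromosome were not at one level in all libraries, as given below.

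The ER folds proteins that are secreted or inserted into membranes. When unfolded proteins accumulate there, the sensors IRE1 (gene Ern1), PERK (gene Eif2ak3) and ATF6 are released from the chaperone BiP (gene Hspa5). IRE1 splices the mRNA of Xbp1, PERK phosphorylates the translation factor eIF2alpha and so favours translation of ATF4, and ATF6 is cut in the Golgi to free a transcription factor. These factors raise transcription of chaperones, disulfide isomerases and the ER-associated degradation machinery. In fat, this system serves the secretion of adipokines and the turnover of membrane and lipid enzymes. Splicing of Xbp1, phosphorylation and cleavage are not visible in gene-level FPKM.

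Libraries were not alike within the BPS group. Averaged over 4 Y-linked transcripts (Ddx3y, Eif2s3y, Kdm5d and Uty) and set against vehicle as 100%, the level of BPS replicates 4, 5, 6 and 8 was 0.437%, 53.5%, 74.5% and 26.4%. The same measure lay between 92.0% and 102.2% in BPS replicates 1, 2 and 3 and between 82.9% and 114.7% in the vehicle libraries. These 4 libraries lay below the other 11, BPS replicate 6 least clearly, at 74.5% against 82.9% in the lowest vehicle library. All 4 were BPS libraries, so sex or sample origin could not be told apart from BPS there, and neither was tested. Log2 changes below are given with and without these 4 libraries, except for Ern1, for which FPKM values are given. The tissue markers were present in every library: Ucp1, the heat-producing uncoupling protein of brown fat, ranged from 82.3 to 1960.0 FPKM in BPS and from 358 to 2321 FPKM in vehicle, with the lowest value in BPS replicate 4. The fat cell markers Adipoq and Plin1 were at 1363 and 221 FPKM or more in BPS and at 681 and 96.5 FPKM or more in vehicle. No counts were used, so depth in reads is unknown. In bulk tissue, fewer cells of a type and less RNA per cell cannot be told apart.

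Most members were well expressed. Averaged over 15 libraries, 6 members reached 100 FPKM, 22 lay between 10 and 100 FPKM and 6 lay below 10 FPKM. The highest was Atf4, followed by Hspa5, Calr, Sec61b and Hsp90b1, with means of 230 FPKM for Atf4 and 165 FPKM for Hsp90b1. The ranges over libraries of these 5 genes overlapped, so their order is not firm. The lowest were Ern1 at 0.561 FPKM, Derl3 at 1.22 FPKM and Sdf2l1 at 4.71 FPKM. The other sensor genes also lay low in the order, with Atf6 at 7.497 FPKM and Eif2ak3 at 5.33 FPKM. Together the 34 members made up between 0.226% and 0.349% of summed FPKM in BPS libraries and between 0.207% and 0.267% in vehicle libraries, with the highest share in BPS replicate 4.

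**Figure D1:**
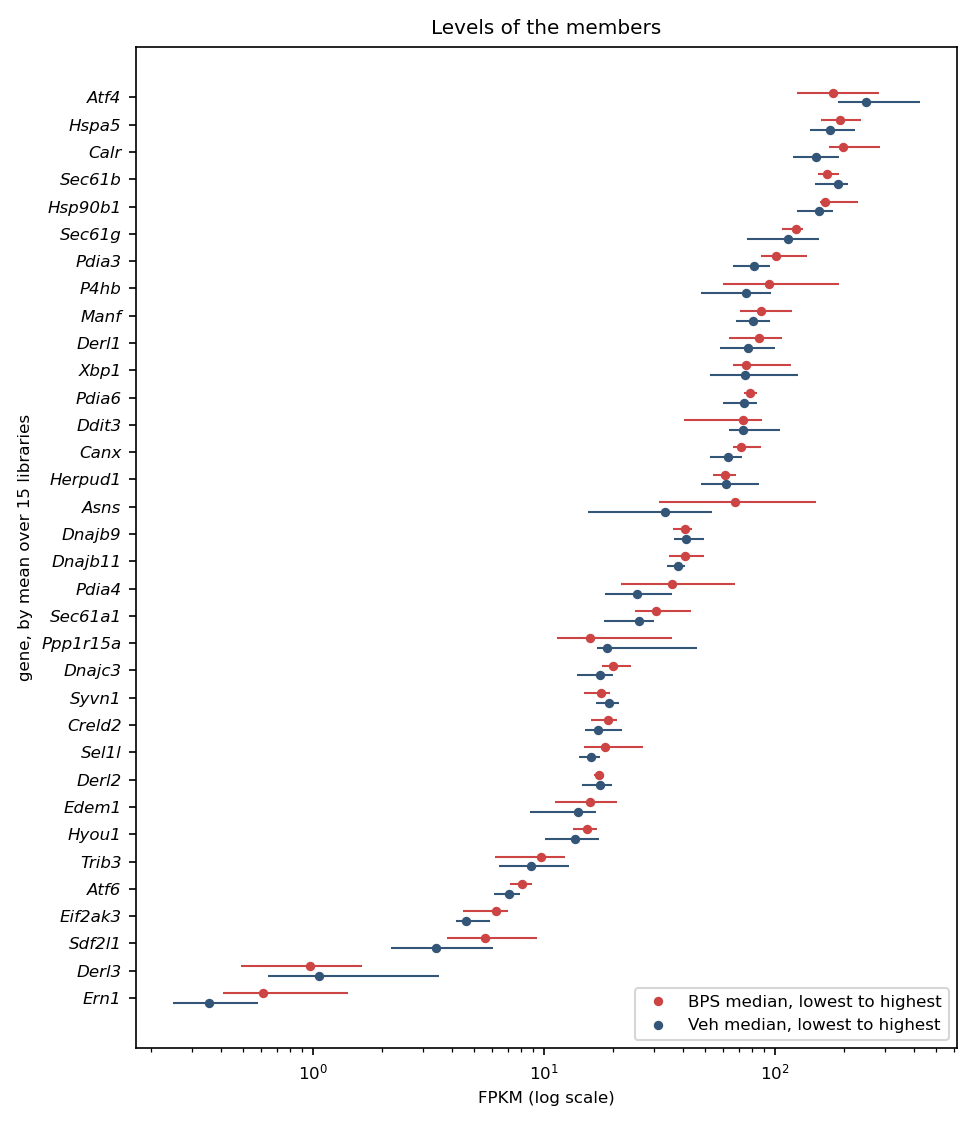
Levels of the 34 members in FPKM on a log axis, ordered by the mean over 15 libraries; points are group medians and lines run from the lowest to the highest library, red for BPS and blue for vehicle. Atf4, Hspa5, Calr, Sec61b and Hsp90b1 stand at the top, and Ern1, Derl3 and Sdf2l1 at the bottom.

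No member passed the test between BPS and vehicle. Ern1 missed the filter of at least 1 FPKM in at least 7 libraries, and the other 33 members were tested. With limma p-values adjusted over 12156 genes and a threshold of 0.05, 0 members were higher and 0 lower, where 0.346% of all tested genes were higher and 0.0658% lower. At an unadjusted p under 0.05, 12 members (36.4%) were higher, against 16.4% of all tested genes, and 1 (3.03%) was lower, against 6.7%. Log2 changes, given as BPS minus vehicle on the log2(FPKM + 1) scale, were positive for 25 and negative for 8 members, with a median of 0.14, where 58.5% of all tested genes were positive with a median of 0.05. They ranged from -0.52 for Atf4 to 0.99 for Asns. In no member were the groups free of overlap, which was the case for 0.576% of all tested genes.

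Without BPS replicates 4, 5, 6 and 8, the smallest adjusted p of any member was 0.559 (limma), and 1 member was higher and 1 lower at an unadjusted p under 0.05. These shares stand beside 5.15% and 2.88% of all tested genes, and beside 0.263% higher and 0.00823% lower at an adjusted p under 0.05. The member median was then 0.08 and that of all genes 0.01. The count of 12 moved with single libraries, and so did the share of all tested genes. It was 7 (21.2%) without BPS replicate 4, BPS replicate 5, vehicle replicate 2 or vehicle replicate 6, where 11.7%, 12.5%, 12.9% and 13% of all tested genes were higher. It was 14 (42.4%) without BPS replicate 1 or vehicle replicate 4, where 18.4% and 18% were. Vehicle replicates 2, 6 and 8 were the libraries highest in skeletal muscle markers. Without these 3 vehicle libraries together, 3 members (9.09%) were higher and 2 (6.06%) lower, near the 7.91% and 3.94% of all tested genes. In the authors' deposited table, 3 members were higher (Calr, Asns and Ern1) and 1 lower (Atf4) at a q under 0.05, where 3.16% of its genes were higher and 2.57% lower.

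**Figure D2:**
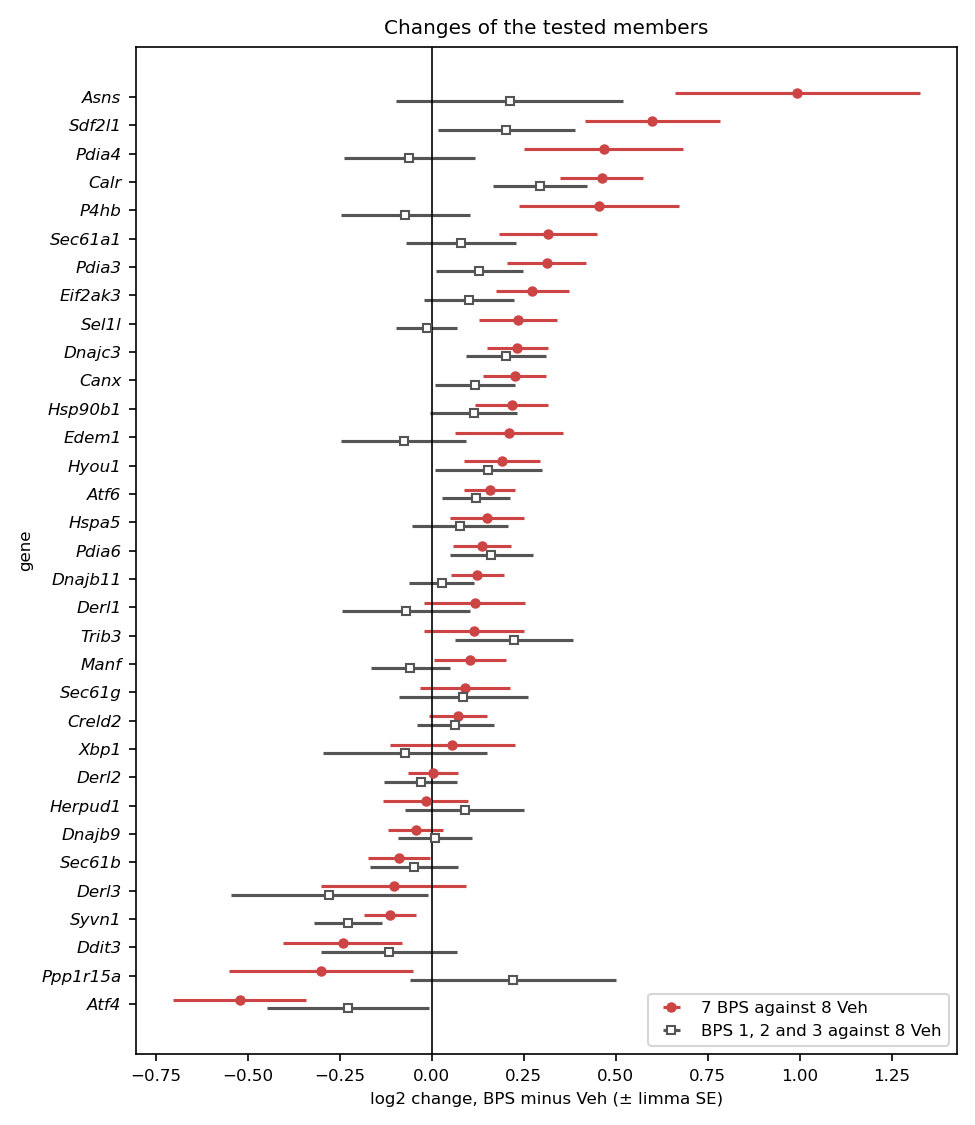
Log2 change of each of the 33 tested members, BPS minus vehicle, with limma standard errors; red circles use all 15 libraries and open squares leave out BPS replicates 4, 5, 6 and 8. Asns moves from 0.99 to 0.21, and Pdia4 and P4hb move from about 0.5 to just below 0, when these libraries are left out.

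ER chaperones were the largest group of members, and 10 of 11 had positive changes, with a median of 0.19 and of 0.11 without BPS replicates 4, 5, 6 and 8. None of the 11 passed the threshold, and 5 had an unadjusted p under 0.05: Calr, Sdf2l1, Dnajc3, Canx and Hsp90b1. Of all tested genes, 58.5% were positive and 16.4% were higher at an unadjusted p under 0.05. Without the 4 libraries only Calr of the 11 stayed under 0.05 (limma unadjusted p 0.0403), where 5.15% of all tested genes were higher. With all libraries Calr, the calcium-binding lectin chaperone calreticulin, had the smallest p of all members. It ranged from 172 to 286 FPKM with a median of 198 FPKM in BPS libraries, against 119.5 to 189.9 FPKM with a median of 152 FPKM in vehicle libraries. Of the 7 BPS libraries 6 lay above every vehicle library, and the groups overlapped only through BPS replicate 2. The log2 change of Calr was 0.46 ± 0.113 (SE; limma adjusted p 0.0789), and 0.29 ± 0.128 with an adjusted p of 0.603 without BPS replicates 4, 5, 6 and 8. In the authors' deposited table its log2 ratio was 0.40 with a q of 0.0127. Over 26 alternative settings its limma adjusted p ranged from 0.0478 to 0.603.

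Hspa5 encodes BiP, the HSP70 of the ER and the usual read-out of the response. It ranged from 159 to 237 FPKM with a median of 192 FPKM in BPS, against 142 to 223 FPKM with a median of 174 FPKM in vehicle. The groups overlapped almost fully, with only BPS replicate 4 above the highest vehicle library, vehicle replicate 1. The log2 change of Hspa5 was 0.15 ± 0.1003 (SE; limma adjusted p 0.37), and 0.08 ± 0.13 without the 4 libraries. Hsp90b1, the HSP90 of the ER, ranged from 157 to 229 FPKM with a median of 166 FPKM in BPS, against 126 to 179 FPKM with a median of 156 FPKM in vehicle. Each BPS library exceeded the vehicle mean but only 3 exceeded every vehicle library, and the log2 change was 0.22 ± 0.0992 (limma adjusted p 0.206), and 0.11 ± 0.118 without the 4 libraries. BPS replicates 1, 2 and 3 were close together at 165 ± 1.00 FPKM (SD, n = 3).

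Both genes are classic carriers of the ER stress response element (ERSE), a CCAAT box and a CCACG separated by 9 bases, to which NF-Y and ATF6 or XBP1 are known to bind. The promoter window of Hspa5 from RefSeq (GRCm38.p6), 250 bases before to 50 after the gene start, is shown whole because it holds a full match; capitals mark the match.
Hspa5 (chr2:34771840-34772139, plus strand): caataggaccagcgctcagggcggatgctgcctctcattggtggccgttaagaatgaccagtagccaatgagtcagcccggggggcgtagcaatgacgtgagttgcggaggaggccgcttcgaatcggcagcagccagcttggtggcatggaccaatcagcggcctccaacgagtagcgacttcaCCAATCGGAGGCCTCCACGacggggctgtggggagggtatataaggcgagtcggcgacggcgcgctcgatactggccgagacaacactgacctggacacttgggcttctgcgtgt
The window of Calr, the member of smallest p, held a match on the opposite strand, which reads as the reverse complement.
Calr (chr8:84846882-84847181, minus strand): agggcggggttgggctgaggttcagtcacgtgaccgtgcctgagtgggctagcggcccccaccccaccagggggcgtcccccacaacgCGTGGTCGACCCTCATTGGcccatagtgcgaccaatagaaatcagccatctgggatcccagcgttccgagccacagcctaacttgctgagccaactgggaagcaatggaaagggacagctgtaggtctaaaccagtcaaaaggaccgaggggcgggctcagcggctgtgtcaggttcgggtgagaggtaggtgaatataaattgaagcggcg

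Canx, the membrane-bound relative of calreticulin, ranged from 65.9 to 87.7 FPKM with a median of 71.3 FPKM in BPS, against 52.7 to 72.0 FPKM with a median of 62.9 FPKM in vehicle. Its log2 change was 0.23 ± 0.0851 (limma adjusted p 0.148), with 3 BPS libraries above every vehicle library, and 0.12 ± 0.109 without BPS replicates 4, 5, 6 and 8. Dnajc3, which in its ER form assists BiP, ranged from 17.8 to 23.9 FPKM with a median of 19.99 FPKM in BPS, against 14.0 to 19.97 FPKM with a median of 17.6 FPKM in vehicle. Unlike most members it kept nearly the same value without BPS replicates 4, 5, 6 and 8, with log2 changes of 0.23 ± 0.0828 (limma adjusted p 0.135) and 0.20 ± 0.109 (adjusted p 0.659). Sdf2l1, a partner of ER DNAJ proteins, was low in level and ranged from 3.80 to 9.33 FPKM with a median of 5.60 FPKM in BPS, against 2.18 to 6.06 FPKM with a median of 3.41 FPKM in vehicle. The 3 BPS libraries above every vehicle library were replicates 4, 5 and 8, and vehicle replicate 8 stood apart from the other vehicle libraries. The log2 change of Sdf2l1 was 0.60 ± 0.183 (limma adjusted p 0.109), and 0.20 ± 0.187 (adjusted p 0.775) without the 4 libraries.

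The remaining chaperones differed little. Hyou1, the large HSP110-type nucleotide exchange factor of the ER, averaged 15.3 ± 1.24 FPKM in BPS (SD, n = 7) and 13.4 ± 2.52 FPKM in vehicle (SD, n = 8), with log2 changes of 0.19 ± 0.104 (limma adjusted p 0.277) and of 0.15 ± 0.146 without the 4 libraries. The BiP co-chaperone genes Dnajb9 and Dnajb11 had log2 changes of -0.04 ± 0.0749 and 0.12 ± 0.0718 (limma adjusted p 0.735 and 0.305), and of 0.01 and 0.03 without the 4 libraries. The secreted stress factors Manf and Creld2 had changes of 0.10 ± 0.099 and 0.07 ± 0.079 (limma adjusted p 0.53 and 0.59), and of -0.06 and 0.06 without the 4 libraries. Dnajb9 had nearly equal means in both groups, 40.2 ± 2.85 FPKM in BPS and 41.6 ± 4.60 FPKM in vehicle. Manf reached 119 FPKM in BPS replicate 4, above its next BPS library at 90.5 FPKM.

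**Figure D3:**
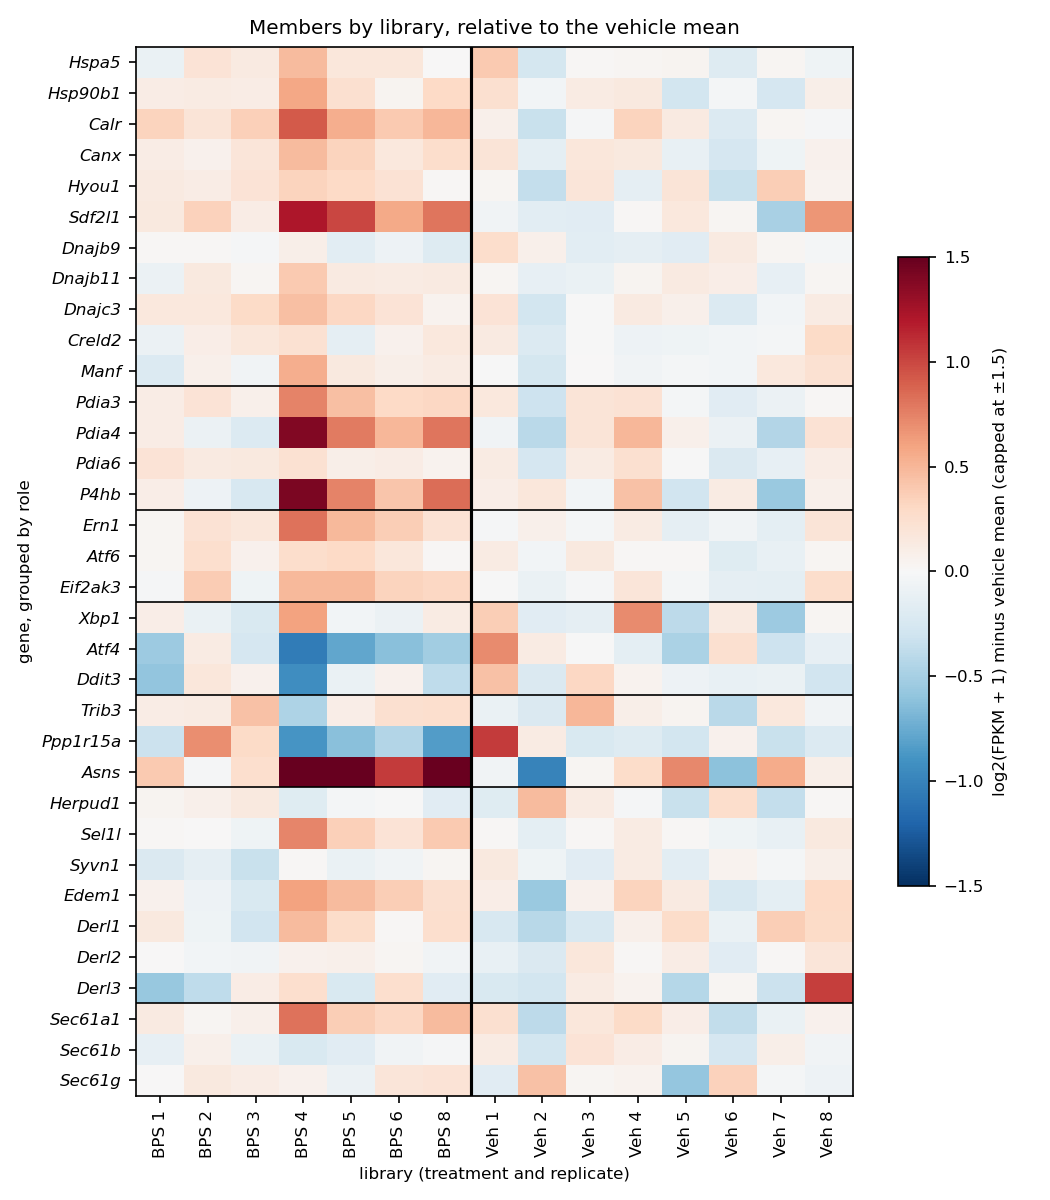
Each member in each library as log2(FPKM + 1) minus the vehicle mean, red above and blue below (colours capped at the ends of the scale), with BPS libraries left of the thick line and genes in blocks by role (chaperones, disulfide isomerases, sensors, transcription factors, eIF2alpha targets, degradation, translocon). BPS replicate 4 holds the deepest reds, at Asns, P4hb and Pdia4, and blues at Atf4, Ddit3 and Ppp1r15a.

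The 4 protein disulfide isomerase genes, whose enzymes form and rearrange disulfide bonds, all had positive changes with a median of 0.38, and without BPS replicates 4, 5, 6 and 8 the median was 0.03. Pdia3, which works with the lectin chaperones, ranged from 86.9 to 138 FPKM with a median of 101 FPKM in BPS, against 66.3 to 95.9 FPKM with a median of 81.7 FPKM in vehicle. The 4 BPS libraries above every vehicle library were replicates 4, 5, 6 and 8. Its log2 change was 0.31 ± 0.107 (limma adjusted p 0.123), and 0.13 ± 0.117 without those libraries.

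P4hb, the classic disulfide isomerase and a subunit of collagen prolyl hydroxylase, stood at 190.0, 119, 94.6 and 127 FPKM in BPS replicates 4, 5, 6 and 8 and at 67.6 ± 7.89 FPKM in BPS replicates 1, 2 and 3 (SD, n = 3), against 72.1 ± 14.5 FPKM in vehicle (SD, n = 8). Pdia4 stood at 67.5, 44.1, 35.95 and 44.6 FPKM in the same 4 libraries and at 24.3 ± 2.90 FPKM in the other 3, against 25.8 ± 5.83 FPKM in vehicle. For both genes BPS replicates 1, 2 and 3 lay within the vehicle range, and Pdia4 in BPS replicate 6 equalled the highest vehicle library. Their log2 changes were 0.46 ± 0.218 and 0.47 ± 0.216 with all libraries (limma adjusted p 0.225 and 0.21) and -0.07 ± 0.175 and -0.06 ± 0.179 without the 4 (adjusted p 0.907 and 0.921). Pdia6 was the even one of this group, at means of 78.5 FPKM in BPS and 71.7 FPKM in vehicle, with changes of 0.14 ± 0.0782 (limma adjusted p 0.297) and 0.16 ± 0.114 in these fits.

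Among the sensors, Ern1 had the lowest level of all members. It ranged from 0.41 to 1.43 FPKM with a median of 0.61 FPKM in BPS, against 0.25 to 0.58 FPKM with a median of 0.355 FPKM in vehicle. Each BPS library exceeded the vehicle mean and 5 exceeded every vehicle library, but the gene was below the filter on low values. Those 5 were replicates 2, 4, 5, 6 and 8, with the highest value in replicate 4. BPS replicates 1, 2 and 3 averaged 0.523 ± 0.103 FPKM (SD), against 0.386 ± 0.117 FPKM in vehicle (SD). In the limma fit with no filter its log2 change was 0.33 ± 0.0985 (adjusted p 0.131). The authors' deposited table gave it a log2 ratio of 0.92 with a q of 0.0338. The 0.33 is on the log2(FPKM + 1) scale, which shrinks changes at so low a level. The ratio of mean FPKM of Ern1, BPS over vehicle, was 1.97. Eif2ak3, the PERK gene, ranged from 4.47 to 7.03 FPKM with a median of 6.21 FPKM in BPS, against 4.16 to 5.87 FPKM with a median of 4.63 FPKM in vehicle. The 5 BPS libraries above every vehicle library were replicates 2, 4, 5, 6 and 8, while replicates 1 and 3 lay below the vehicle mean. Its log2 change was 0.27 ± 0.0995 (limma adjusted p 0.139), and 0.10 ± 0.122 without the 4 libraries. Atf6 ranged from 7.13 to 8.88 FPKM with a median of 8.03 FPKM in BPS, against 6.11 to 7.93 FPKM with a median of 7.12 FPKM in vehicle. The spread within each group was small, and its change was 0.16 ± 0.0689 (limma adjusted p 0.192), and 0.12 ± 0.0925 without the 4 libraries.

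Of the 3 transcription factors that carry the signal none passed the threshold, and 1 change was positive and 2 were negative. Xbp1, the target of IRE1, ranged from 65.9 to 118 FPKM with a median of 75.1 FPKM in BPS, against 52.6 to 126 FPKM with a median of 74.5 FPKM in vehicle. The medians were nearly equal and the vehicle range enclosed the BPS range, with a log2 change of 0.06 ± 0.17 (limma adjusted p 0.857), and of -0.07 ± 0.223 without the 4 libraries. Atf4, the factor translated when PERK or related kinases are active, ranged from 125 to 282 FPKM with a median of 178 FPKM in BPS, against 187 to 424 FPKM with a median of 248 FPKM in vehicle. Below every vehicle library lay 5 BPS libraries, replicates 1, 4, 5, 6 and 8, and only BPS replicate 2 exceeded the vehicle mean. The log2 change of Atf4 was -0.52 ± 0.18 (limma adjusted p 0.126), and -0.23 ± 0.22 (adjusted p 0.784) without BPS replicates 4, 5, 6 and 8. In the authors' deposited table its log2 ratio was -0.56 with a q of 0.0448.

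Ddit3 encodes CHOP, a factor of the terminal phase of the response. It ranged from 40.5 to 88.1 FPKM with a median of 72.7 FPKM in BPS, against 63.5 to 106 FPKM with a median of 73.3 FPKM in vehicle. BPS replicates 1, 4 and 8 lay below every vehicle library and the other 4 within the vehicle range, with a log2 change of -0.24 ± 0.163 (limma adjusted p 0.369). It was -0.13 ± 0.14 without BPS replicate 4 alone and -0.12 ± 0.185 without BPS replicates 4, 5, 6 and 8.

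**Figure D4:**
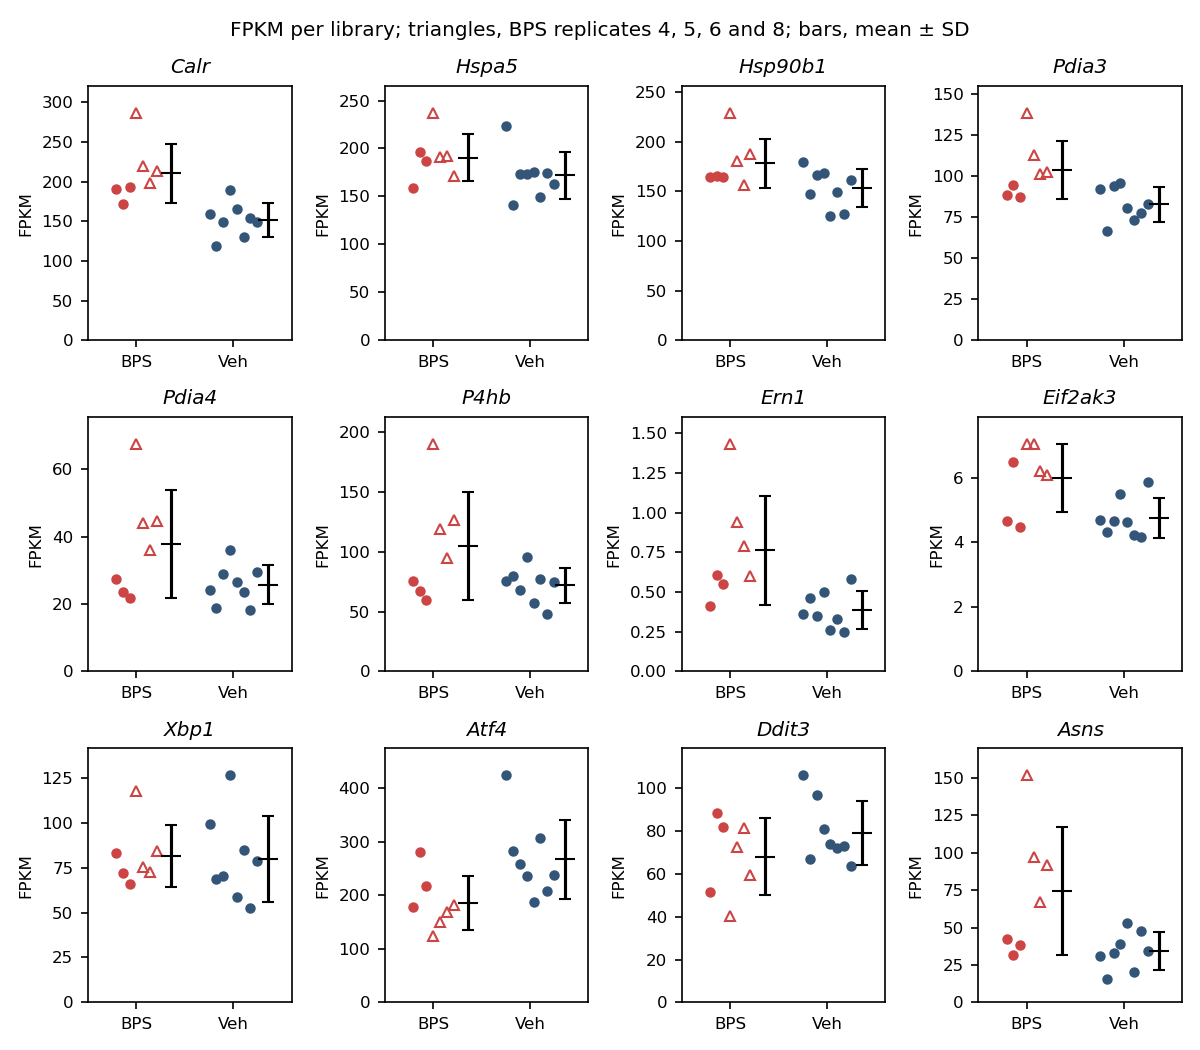
FPKM per library for 12 members, BPS left of vehicle in each panel; triangles are BPS replicates 4, 5, 6 and 8, circles are the other libraries, and the bar beside each group is its mean ± SD. In Asns, Pdia4, P4hb and Calr the triangles are the upper BPS points, while in Atf4 they are 4 of the 5 lowest BPS points.

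Among the targets of the eIF2alpha branch, 2 of 3 had positive changes, with a median of 0.11, and none passed the threshold. Asns, asparagine synthetase and a direct ATF4 target, ranged from 31.7 to 152 FPKM with a median of 67.4 FPKM in BPS, against 15.5 to 53.3 FPKM with a median of 33.4 FPKM in vehicle. The 4 libraries above every vehicle library were BPS replicates 4, 5, 6 and 8, at 152, 97.3, 67.4 and 91.5 FPKM, and the other BPS libraries averaged 37.5 ± 5.39 FPKM (SD, n = 3), within the vehicle range. Its log2 change of 0.99 ± 0.333 was the highest of all members (limma adjusted p 0.121), and it was 0.21 ± 0.309 (adjusted p 0.837) without these libraries. The authors' deposited table gave a log2 ratio of 1.04 with a q of 0.038. In the libraries where Asns was highest, Atf4 was low: in BPS replicate 4, Asns was the highest and Atf4 the lowest of all 15 libraries.

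The window of Asns is shown because its amino acid response element, the sequence TGATGAAAC to which ATF4 is known to bind in the human gene, lies just before the start; capitals mark it. This motif was added to the search after the values of the gene were seen.
Asns (chr6:7693160-7693459, minus strand): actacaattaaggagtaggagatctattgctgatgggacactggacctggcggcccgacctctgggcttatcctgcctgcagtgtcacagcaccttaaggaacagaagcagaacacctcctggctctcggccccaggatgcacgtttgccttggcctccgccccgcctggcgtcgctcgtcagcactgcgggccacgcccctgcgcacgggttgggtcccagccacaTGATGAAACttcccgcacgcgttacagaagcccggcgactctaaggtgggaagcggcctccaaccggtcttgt

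Trib3, a pseudokinase induced by ATF4 and CHOP, ranged from 6.13 to 12.4 FPKM with a median of 9.70 FPKM in BPS, against 6.42 to 12.9 FPKM with a median of 8.80 FPKM in vehicle. Its log2 change was 0.11 ± 0.136 (limma adjusted p 0.62), and 0.22 ± 0.161 without the 4 libraries, and its lowest library was again BPS replicate 4. Ppp1r15a, the inducible phosphatase subunit GADD34 that restores translation, averaged 19.0 ± 9.14 FPKM in BPS and 23.0 ± 9.67 FPKM in vehicle. BPS replicates 4, 5, 6 and 8 held its 4 lowest values, between 11.4 and 15.9 FPKM, while vehicle replicate 1 held the highest, 46.2 FPKM. The change was -0.30 ± 0.249 (limma adjusted p 0.462) with all libraries and 0.22 ± 0.281 (adjusted p 0.817) without the 4.

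The 7 members of ER-associated degradation, which moves misfolded proteins out of the ER for destruction, had a median change of 0.00, and of -0.07 without BPS replicates 4, 5, 6 and 8, and none passed the threshold. Sel1l, the scaffold of the HRD1 ubiquitin ligase, had a log2 change of 0.23 ± 0.105 (limma adjusted p 0.199), and of -0.01 ± 0.0827 without the 4 libraries. It stood at 27.0, 20.4, 18.4 and 21.0 FPKM in BPS replicates 4, 5, 6 and 8 and at 15.7 ± 0.538 FPKM in the other BPS libraries (SD, n = 3), against 15.8 ± 1.22 FPKM in vehicle (SD, n = 8). Syvn1, the ligase itself, went the other way, at 17.6 ± 1.61 FPKM in BPS and 19.1 ± 1.69 FPKM in vehicle, with changes of -0.11 ± 0.0716 (limma adjusted p 0.337) and -0.23 ± 0.0921 (adjusted p 0.559) without the 4 libraries.

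The mannosidase-like lectin Edem1 had a log2 change of 0.21 ± 0.147 (limma adjusted p 0.385), and Herpud1, an ATF6 and XBP1 target that binds the ligase complex, one of -0.02 ± 0.115 (adjusted p 0.939). Without the 4 libraries these were -0.08 and 0.09. The derlins Derl1, Derl2 and Derl3, membrane proteins of the exit channel, had changes of 0.12 ± 0.137, 0.00 ± 0.0686 and -0.10 ± 0.197 (limma adjusted p 0.615, 0.98 and 0.766), and of -0.07, -0.03 and -0.28 without the 4 libraries. Within BPS Derl2 varied least of all members, with a coefficient of variation of 4.13% in BPS and 11.0% in vehicle. Derl3, a derlin of secretory cells, ranged from 0.49 to 1.63 FPKM in BPS and from 0.64 to 3.53 FPKM in vehicle, with the highest value in vehicle replicate 8. The B and plasma cell marker list was also highest in vehicle replicate 8, at a mean of 3.18 on the log2(FPKM + 1) scale, against 1.26 to 2.92 in the other vehicle libraries, and its part in the Derl3 value was not tested.

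The translocon genes encode the channel through which new proteins enter the ER. Sec61a1, its pore subunit, averaged 31.1 ± 6.49 FPKM in BPS and 24.7 ± 4.47 FPKM in vehicle, with a log2 change of 0.31 ± 0.133 (limma adjusted p 0.181) and of 0.08 ± 0.15 without BPS replicates 4, 5, 6 and 8. The small subunit genes Sec61b and Sec61g had changes of -0.09 ± 0.0842 and 0.09 ± 0.122 (limma adjusted p 0.523 and 0.67), and of -0.05 and 0.09 without the 4 libraries.

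The same libraries recurred across members. BPS replicate 4 was the highest of all 15 libraries for 17 of 33 tested members (51.5%), against 26.2% of all tested genes, and the lowest for 4 (12.1%), against 19.2%. The 4 were Atf4, Ddit3, Trib3 and Ppp1r15a, while Asns and the PERK gene Eif2ak3, of the same branch, were highest there, Eif2ak3 together with BPS replicate 5. Vehicle replicate 2 was the lowest for 16 tested members (48.5%), against 15.3% of all tested genes. In BPS replicates 4, 5, 6 and 8, 54.5%, 45.5%, 27.3% and 36.4% of the tested members lay above every vehicle library, where 34.6%, 24.6%, 15.1% and 29.2% of all tested genes did. In BPS replicates 1, 2 and 3 these shares were 3.03%, 9.09% and 6.06% of the members, against 5.68%, 14.1% and 12.5% of all tested genes. The high values in the 4 libraries were therefore not confined to the members. BPS replicates 4, 5, 6 and 8 were the top 4 libraries in 6 of 34 members (17.6%: Calr, Pdia3, Pdia4, Asns, Sel1l and Sec61a1, with Pdia4 tied between BPS replicate 6 and a vehicle library), where they were so in 8.3% of all tested genes, a count given as a description only.

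Some marker lists of fat cells and of other cells moved with these libraries, and others did not. The mean log2(FPKM + 1) of 5 white adipocyte markers lay between 7.21 and 8.69 in BPS replicates 4, 5, 6 and 8, between 4.48 and 6.08 in BPS replicates 1, 2 and 3 and between 4.79 and 6.77 in vehicle. Of 6 macrophage markers the mean lay between 4.13 and 4.79 in the first 4, between 3.28 and 3.38 in the other BPS libraries and between 3.29 and 3.91 in vehicle. The mean of 6 fibroblast and progenitor markers was also higher in the first 4, at 4.21 to 5.48, than in BPS replicates 1, 2 and 3, at 3.49 to 4.20, with 3.92 to 5.09 in vehicle. Neutrophil and endothelial markers lay the other way. The mean of 4 neutrophil markers was 2.46 to 3.15 in the first 4 and 3.68 to 4.27 in BPS replicates 1, 2 and 3, against 2.51 to 3.16 in vehicle. That of 5 endothelial markers was 5.14 to 5.90 in the first 4 and 5.97 to 6.62 in the other BPS libraries, against 5.55 to 6.47 in vehicle. The 7 brown adipocyte markers lay at 4.40 to 6.17 in the first 4, lowest in BPS replicate 4. They lay at 6.29 to 6.67 in BPS replicates 1, 2 and 3, against 5.44 to 6.91 in vehicle. The 6 general adipocyte markers lay at 10.15 to 10.76 in the first 4. They lay at 9.77 to 10.12 in the other BPS libraries, against 8.88 to 10.22 in vehicle. The 8 skeletal muscle markers were highest in vehicle replicates 2, 6 and 8, at 12.3, 12.2 and 10.7, and ranged from 0.574 to 9.76 in BPS. The Schwann cell, B and plasma cell, and pericyte and smooth muscle lists overlapped between the first 4 and the other BPS libraries. They lay at 1.74 to 3.48, 0.378 to 2.82 and 4.31 to 5.47 in the first 4. In BPS replicates 1, 2 and 3 they lay at 2.385 to 2.74, 1.89 to 2.37 and 5.40 to 6.16. Vehicle libraries held 1.99 to 4.32, 1.26 to 3.18 and 4.47 to 6.76. No marker of these lists was below 0.1 FPKM in all libraries. The group differences of the 12 marker lists had adjusted p of 0.11 or more (two-sided exact permutation test over 6435 splits, smallest possible p 0.000155). The part of fat cells and of other cell types in the members' values was not tested.

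Further genes of folding, translocation and stress gave no call either. Of 174 tested genes in 11 further lists, 0 were higher and 0 lower at an adjusted p under 0.05 (limma), with 41 higher (23.6%) and 7 lower (4.02%) at an unadjusted p under 0.05, against 16.4% and 6.7% of all tested genes. The median log2 change was 0.10 with all libraries and -0.01 without BPS replicates 4, 5, 6 and 8. The list with the highest median was that of other chaperones and folding enzymes, at 0.24 with 23 of 25 genes positive, and 0.09 without the 4 libraries. In this list Ganab, the glucosidase that trims N-glycans, had a change of 0.26 ± 0.0805 (limma adjusted p 0.11), and the BiP exchange factor Sil1 one of 0.34 ± 0.109 (adjusted p 0.116). Without the 4 libraries these were 0.15 and 0.21. The ER prolyl isomerase Fkbp9 stood at 77.8 ± 32.1 FPKM in BPS and 49.9 ± 7.75 FPKM in vehicle, with a change of 0.55 ± 0.194 (limma adjusted p 0.132) and of 0.05 without the 4 libraries.

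Among 20 tested targets of the integrated stress response, 10 changes were positive and 10 negative. Ddit4, an inhibitor of mTORC1, averaged 16.9 ± 5.47 FPKM in BPS and 9.42 ± 2.79 FPKM in vehicle, and its log2 change was 0.77 ± 0.199 (limma adjusted p 0.0876) with all libraries and 0.80 ± 0.247 (adjusted p 0.369) without the 4. Atf3, a stress-induced repressor, averaged 17.9 ± 15.9 FPKM in BPS and 49.5 ± 37.2 FPKM in vehicle, a change of -1.57 ± 0.437 (limma adjusted p 0.0955), and -0.63 without the 4. The cystine transporter Slc7a11 had a change of 0.48 ± 0.14 (limma adjusted p 0.102), and of 0.32 without the 4. Among 12 tested aminoacyl-tRNA synthetases, 11 had positive changes with a median of 0.11, but the median was -0.03 without the 4 libraries. Smallest in p were Wars (0.44 ± 0.148), Gars (0.31 ± 0.119) and Sars (0.13 ± 0.0589), with limma adjusted p between 0.121 and 0.193. Without the 4 libraries Gars was at 0.22 and Sars at 0.06. Wars, which interferon also induces, stood at 33.0, 30.9 and 44.2 FPKM in BPS replicates 1, 2 and 3, against a vehicle range of 17.3 to 22.7 FPKM, and was the only gene of the 174 past the threshold without the other 4 BPS libraries (log2 change 0.86 ± 0.117, limma adjusted p 0.00873). The neutrophil markers were highest in the same 3 libraries, and their part in the Wars value was not tested.

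Genes of the remaining lists each missed the threshold. Of the eIF2alpha kinases, phosphatase subunits and exchange factor subunits, Eif2b5 had a log2 change of 0.16 ± 0.0528, Eif2b3 one of 0.43 ± 0.175 and Eif2s1, eIF2alpha itself, one of 0.16 ± 0.0667 (limma adjusted p 0.119 to 0.183). Without BPS replicates 4, 5, 6 and 8 these were 0.17, -0.01 and 0.04. Of the other sensors, the ATF6 relative Atf6b had a change of 0.40 ± 0.12, Mbtps1, the protease that makes the first cut of ATF6, one of 0.29 ± 0.0898, and Creb3l2 one of 0.27 ± 0.126 (limma adjusted p 0.106 to 0.216), and without the 4 libraries 0.22, 0.15 and 0.06. Of disulfide enzymes, Qsox1 had a change of 0.76 ± 0.259, the oxidase Ero1l one of 0.21 ± 0.086 and the peroxiredoxin Prdx4 one of 0.27 ± 0.119 (limma adjusted p 0.125 to 0.197), and without the 4 libraries 0.18, 0.05 and 0.14. The oligosaccharyltransferase subunits Rpn2, Ddost and Rpn1 had changes of 0.42 ± 0.139, 0.30 ± 0.112 and 0.19 ± 0.0729 (limma adjusted p 0.12 to 0.156), and of 0.10, 0.06 and 0.08 without the 4 libraries.

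In the translocation list, Sec63, a membrane partner of BiP, averaged 19.9 ± 2.62 FPKM in BPS and 15.7 ± 1.75 FPKM in vehicle, with 6 of 7 BPS libraries above every vehicle library and a log2 change of 0.32 ± 0.0871 (limma adjusted p 0.0926), and of 0.20 without the 4 libraries. The signal recognition particle subunit Srp72 had a change of 0.27 ± 0.0811 (limma adjusted p 0.107), and of 0.13 without the 4. Srp54a had one of -0.56 ± 0.15 (limma adjusted p 0.0912), and of -0.23 without the 4, but it has near-identical copies in the mouse genome and its value is uncertain. The lectins Os9 and Erlec1, which sort glycoproteins for degradation, had changes of 0.53 ± 0.15 and 0.26 ± 0.0959, and the conjugating enzyme gene Ube2j2 one of -0.14 ± 0.0623 (limma adjusted p 0.0986 to 0.199). Without the 4 libraries these were 0.18, 0.03 and -0.09. Of ER export genes, Sec24a had a change of -0.23 ± 0.0816, Tmed10 one of 0.27 ± 0.104 and Sar1b one of -0.61 ± 0.272 (limma adjusted p 0.137 to 0.196), and without the 4 libraries -0.25, 0.02 and -0.47. Of ER-phagy genes, Atl3 had a change of 0.57 ± 0.202, Calcoco1 one of 0.15 ± 0.0681 and Tex264 one of 0.20 ± 0.146 (limma adjusted p 0.132 to 0.407), and without the 4 libraries 0.20, 0.05 and 0.37.

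Promoter sequence was not itself used to choose the members. The list was made of known genes of this response, however, some of them classic carriers of the ERSE. A high share with the element therefore follows from the choice and is given as a description only. Windows from RefSeq (GRCm38.p6) were matched by gene ID for 29 of the 34 members, and 9 of these 29 (31%) held the ERSE (CCAAT, 9 bases of any kind, CCACG) on either strand, against 37 of 27025 genes (0.137%) with a window. The shorter ERSE-II (ATTGG, 1 base of any kind, CCACG) was found in 2 members (6.9%), Herpud1 and Dnajb11, against 0.0444% of genes. The sequence TGACGTGG, a core of the XBP1 site, and TGATGNAAT, a composite C/EBP-ATF site, were found in no member's window, against 0.714% and 1.08% of genes. TGATGAAAC was found in Asns alone among members, against 0.229% of genes. Among tested genes with a window, the shares were 0.195% for ERSE and 0.0924% for ERSE-II. They were 0.986% for TGACGTGG, 0.534% for TGATGNAAT and 0.154% for TGATGAAAC. No matches overlapped within a member's window. A match is a run of letters and not evidence of binding.

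The ERSE matches of the other members are shown because the spacer of 9 bases and the orientation differ between them while the ends are fixed. Hsp90b1 held 2, one on each strand, and those of Creld2 and Derl3 lay on the opposite strand. Each line gives the match in capitals with 20 bases on either side, 5′ to 3′ in the sense of the gene.
Hsp90b1 (chr10:86705618-86705676, minus strand): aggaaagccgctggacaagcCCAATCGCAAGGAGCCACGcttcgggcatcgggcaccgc
Hsp90b1 (chr10:86705513-86705571, minus strand): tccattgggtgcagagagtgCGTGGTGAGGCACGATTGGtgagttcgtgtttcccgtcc
Canx (chr11:50325780-50325838, minus strand): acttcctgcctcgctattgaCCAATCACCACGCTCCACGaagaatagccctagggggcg
Dnajc3 (chr14:118937807-118937865, plus strand): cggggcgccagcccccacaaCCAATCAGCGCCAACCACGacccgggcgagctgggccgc
Creld2 (chr15:88819500-88819558, plus strand): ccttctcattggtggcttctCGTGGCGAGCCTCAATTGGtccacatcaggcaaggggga
Pdia6 (chr12:17266471-17266529, plus strand): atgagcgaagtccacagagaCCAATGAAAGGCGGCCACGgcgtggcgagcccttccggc
Syvn1 (chr19:6046512-6046570, plus strand): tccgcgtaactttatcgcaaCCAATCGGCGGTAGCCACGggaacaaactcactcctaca
Derl3 (chr10:75893222-75893280, plus strand): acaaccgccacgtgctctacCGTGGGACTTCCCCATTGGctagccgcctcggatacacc
The ERSE-II matches of Herpud1 and Dnajb11 are shown in the same way.
Herpud1 (chr8:94386357-94386407, plus strand): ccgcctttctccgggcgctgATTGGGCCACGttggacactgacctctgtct
Dnajb11 (chr16:22857832-22857882, plus strand): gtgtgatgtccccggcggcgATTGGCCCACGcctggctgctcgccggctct

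All ERSE matches of members lay before the gene start, the nearest in Syvn1, beginning at position -44, and the farthest in Hsp90b1, at -212, where the start is 0. The 9 members with an ERSE had a median log2 change of 0.15, with 7 positive, and the 19 tested members with a window and no ERSE had one of 0.11, with 13 positive. Without BPS replicates 4, 5, 6 and 8 these medians were 0.11 and 0.01. The difference was not tested, since the members were chosen with results known. Outside the members, 10 tested genes held an ERSE, with a median change of 0.07. Of these, 1 passed the threshold, Xlr3b, an X-linked gene with near-identical copies, with a change of -1.11 ± 0.142 (limma adjusted p 0.0106) and of -0.76 without the 4 libraries. Xlr3b was named after its values were seen.

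**Figure D5:**
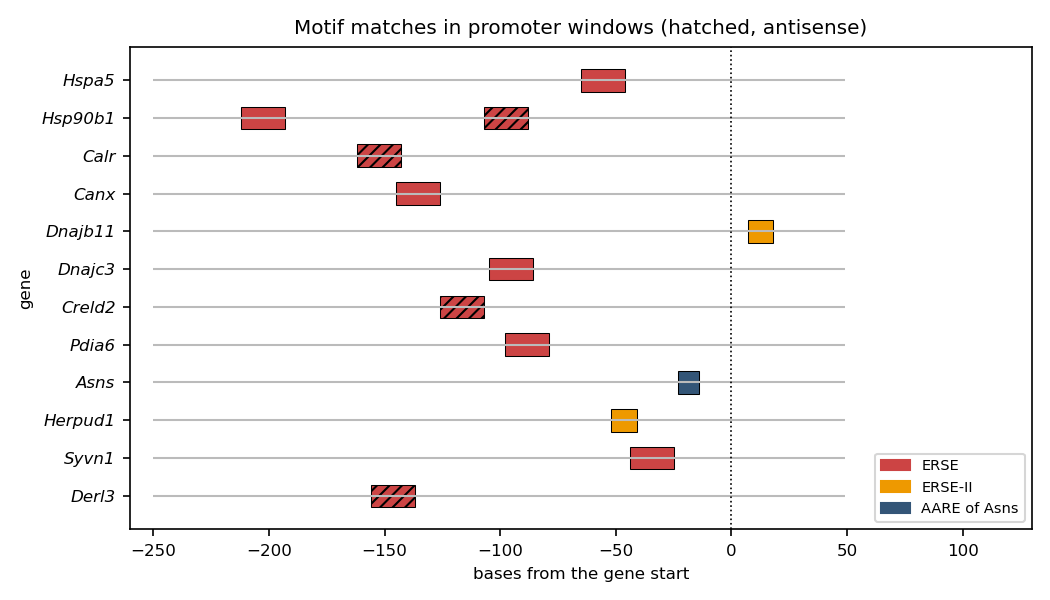
Positions of motif matches in the promoter windows of the 12 members that held one, in bases from the gene start; red marks ERSE, orange ERSE-II and blue the response element of Asns, and hatching marks matches on the opposite strand. All ERSE matches lie between positions -212 and -26.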

How the data were processed

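RNA from brown adipose tissue was sequenced after poly(A) selection with oligo(dT) beads, per the labels' protocols. The deposited values were FPKM with 2 decimals, 1 column per library. The submitters' processing notes name the build GRCm38.p6 and, as tools, RSEM 1.3.1, DESeq2 1.4.5, Bowtie2 and HISAT2 2.1.0. Strand use in counting is not stated, and reads of genes that overlap may be mixed. FPKM divides by the library total, so abundant transcripts lower all others. The authors' deposited table also holds a log2 ratio, a p-value and a q-value per gene, used only where named.

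Columns were matched to mice by the identifier in the labels. The 12156 genes that reached 1 FPKM in 7 or more libraries were fitted on log2(FPKM + 1) by limma 3.58.1 (R 4.3.3; trended and robust variance) with Benjamini-Hochberg adjustment at 0.05 over all of them; the same genes were used when libraries were left out. This is the test the design named for FPKM. The fit was tested on simulated data with genes drawn independently. These held no differences shared by whole libraries, so that test does not bear on the library differences above. Errors are limma standard errors for log2 changes and SDs for FPKM. Whether replicates were separate animals is read from the mouse identifiers alone. Depth in reads is unknown. The members, lists, markers and libraries left out were chosen with earlier results of these data known. Members described by lowest, median and highest library were the 8 of smallest p and a fixed set of sensors, factors and targets; of other lists, up to 3 genes of smallest p were named. Of 16774 gene IDs, 16727 matched the RefSeq table. Promoter windows came from RefSeq. Python 3.11.15 was used for counts, motifs and figures. Protein sequences were not used here. Alternatives were other scalings, pseudocounts, filters and spread models, a replicate block and left-out libraries.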

Additional observations from a re-analysis of the deposited data

Results flagged for a closer look

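In 7 of 68 groups of members' values, the highest library stood apart from the others by more than Dixon's 95% limit. Chance flags about 1 in 20 independent groups of normal values. The 68 groups share the same libraries and are not independent, so the count of 7 is a description only. In BPS replicate 4 these were Calr at 286 FPKM, Manf at 119 FPKM and Xbp1 at 118 FPKM. In vehicle replicate 1 they were Hspa5 at 223 FPKM and Ppp1r15a at 46.2 FPKM. In vehicle replicate 8 they were Sdf2l1 at 6.06 FPKM and Derl3 at 3.53 FPKM. Markers and Y-linked levels of these libraries are given with the results above, and their part in these values was not tested.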

How the results depend on the processing

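Over 26 alternatives, no member passed the threshold except Calr with the replicate number as a block (1 member higher; log2 change 0.47 ± 0.0726, limma adjusted p 0.0478). The block fit left out vehicle replicate 7, whose number no BPS library shared. Correlations of deviations between same-numbered libraries ranged from -0.418 to 0.583, and 4 of 7 were over 0.1. Of 7 BPS libraries, 2 correlated best with their own number. These values do not settle whether the numbers pair the samples, since other differences between libraries also enter them. The 42 higher and 8 lower of all tested genes became 15 and 2 with a pseudocount of 5, 8 and 1 without the filter, 24 and 5 with a filter of 5 FPKM, and 0 and 0 without vehicle replicates 2, 6 and 8 (limma; 961 and 479 at an unadjusted p under 0.05). Lower genes were 20 under median scaling, where 59 were higher, 4 with the block and 1 without BPS replicates 4, 5, 6 and 8. With single libraries left out, higher genes ranged from 0 to 61 and lower from 1 to 27 (at an unadjusted p under 0.05, 1475 higher without BPS replicate 8 and 1765 without vehicle replicate 8, where 0 passed). By library left out, 2, 3, 2, 9 and 0 were higher without BPS replicates 3, 4, 5, 6 and 8, 1, 12, 9, 1, 1 and 0 without vehicle replicates 2, 3, 5, 6, 7 and 8, and 27 were lower without BPS replicate 2; the cause was not tested. Of 856 recomputed member values 33 changed sign, in 13 members, none of them past the threshold. Without BPS replicates 4, 5, 6 and 8 the log2 changes of members that changed sign were 0.00873 for Dnajb9, -0.0585 for Manf, -0.0608 for Pdia4, -0.0721 for P4hb, -0.0722 for Xbp1, 0.221 for Ppp1r15a, 0.0896 for Herpud1, -0.014 for Sel1l, -0.0766 for Edem1, -0.0703 for Derl1 and -0.0305 for Derl2. Without vehicle replicates 2, 6 and 8 they were -0.0227 for Trib3, 0.134 for Herpud1, -0.0383 for Derl2 and 0.0565 for Derl3. With the replicate block there was -0.0217 for Xbp1, under quantile normalization -0.016 for Derl2 and under median scaling -0.0396 for Derl2. With single libraries left out, values ranged for Xbp1 from -0.0354 to 0.157, Herpud1 from -0.0675 to 0.0501, Derl2 from -0.0276 to 0.0289 and Derl3 from -0.165 to 0.0446.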
